A study of Mus musculus with 15 samples.

Results

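The potassium channel genes are described here across single microdissected mouse proximal tubules and whole mouse kidney. They were chosen by name, as every gene whose symbol starts with Kcn except Kcnj1 and the symbols of pseudogenes and of antisense or overlapping transcripts that end in os or ot1. This rule found 95 of the 47069 genes in the table, out of 99 symbols that start with Kcn. Of the 95, 93 encode channel subunits or related proteins and 2, Kcnmb4os1 and Kcnmb4os2, are opposite-strand RNAs that the rule kept. No expression value entered the choice. The measurements came from 12 libraries that were each made from a single proximal tubule segment labelled PTS2, and from 3 whole-kidney libraries. All came from male C57BL/6 mice aged 2 months, with no treatment or engineered allele named, and all hold polyadenylated RNA copied into cDNA with a low-input SMART-Seq kit. The tubule libraries carry the names m1, m2 and m3, with 4 numbered replicates each. The labels do not say what these names or numbers stand for, or whether libraries came from separate animals, so the p-values measure only the spread between these libraries.

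Potassium channels let potassium ions cross the membrane down their gradient and set the membrane voltage. In the proximal tubule, channels in the basolateral membrane, which faces the blood, return the potassium brought in by the sodium pump and keep up the voltage that drives sodium-coupled uptake of glucose, amino acids and phosphate. The main families are the inward rectifiers (Kir, symbols Kcnj), the tandem-pore leak channels (K2P, Kcnk), the voltage-gated channels (Kv) and the channels opened by intracellular calcium or sodium, with accessory subunits that do not form a pore.

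The part of the protein that makes these genes potassium channels is the selectivity filter in the pore loop, so its coding sequence is shown for 6 of the pore-forming genes that the results turn on, 2 of K2P, 2 of Kir and 1 each of Kv and calcium-activated channels. In the longest reading frame that GENCODE M21 (genome build GRCm38) gives each gene, a threonine codon, any codon, a glycine codon, a tyrosine or phenylalanine codon and a second glycine codon were looked for in frame, on the coding strand only. The capitals mark the 15 matching bases, and 6 bases on either side are in lower case.
Kcnk5, first match: atcaccACCATCGGTTATGGCaatgtg
Kcnk5, second match: atctccACCATTGGCTTTGGGgacttt
Kcnk1: ctctccACCACAGGCTATGGCcacacg
Kcnj8: caagtgACCATTGGGTTTGGAgggaga
Kcng1: atgacaACCGTAGGCTACGGAgacatg
Kcnma1: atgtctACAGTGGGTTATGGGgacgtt
Kcnj2: cagacaACCATTGGCTATGGTttcagg
The matches start at codons 98 and 203 of Kcnk5 and at codon 117 of Kcnk1. Such a run was present in 65 of the 93 protein-coding members (69.9%) and in 229 of all 21526 reading frames (1.06%), or 0.765% of those outside the members. It was found in 14 of 14 K2P genes, 11 of which held it in both pore loops, in 13 of 14 Kir genes, in 33 of 40 Kv alpha genes and in 5 of 12 genes of calcium- or sodium-activated channels and their subunits. None of the 5 KCNE, 4 KChIP or 3 Kv beta accessory genes held it, and neither did Kcnrg, the remaining coding member. A match describes these letters only.

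The labelled tissue was checked against genes of other nephron segments, all in TPM, the number of transcripts of a gene relative to all transcripts of its library after dividing by transcript length. The summed level of 5 general proximal tubule genes (Lrp2, Cubn, Slc34a1, Aqp1, Slc27a2) had a median of 12656 TPM in the tubules, against a mean of 9653 TPM in kidney. The S1 genes Slc5a2 and Slc5a12 together had a median of 0.83 TPM against 740 TPM, and the S2 genes Slc22a6 and Slc22a8 a median of 658 TPM against 757 TPM. Of these 2 S2 genes, 1 was lower in every tubule than in every kidney library. The S3 gene Slc7a13 had a median of 1829 TPM against 773 TPM. Genes of the distal convoluted tubule and intercalated cells stayed at or under 0.54 TPM in sum in every tubule library, and the 4 connecting tubule and principal cell genes reached at most 15.6 TPM against 968 TPM in kidney. The 4 macrophage genes (C1qa, C1qb, Csf1r, Cd68) stood higher, at a median of 44.6 TPM in sum, 55.4% of the kidney mean of 80.4 ± 11.5 TPM. Their highest tubule sum, 77.1 TPM, lay within the kidney range, though 3 of the 4 genes were lower in every tubule than in every kidney library. One library stood apart: in m3 replicate 3 the 4 thick ascending limb genes (Umod, Slc12a1, Cldn16, Ptger3) summed to 1408 TPM, 58.9% of the kidney mean of 2392 ± 138 TPM, while the other 11 tubules held at most 55.0 TPM. All 4 of these genes were below every kidney library in every tubule. Values that this library sets are named as such where they are given.

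Few potassium channel genes accounted for nearly all of the signal. Of the 95 members, 10 had a mean of at least 1 TPM in the tubules and 21 in whole kidney, 9 of them in both. Another 73 (76.8%) were under 1 TPM in both, compared with 71.1% of all genes in the table. The highest single tubule value among these 73 was 1.24 TPM, for the Kv gene Kcnh1, and 4 members (Kcnk9, Kcnk15, Kcnc4 and Kcnmb4os1) were listed at 0 in all 15 libraries. A tubule library had 9.08 ± 1.56 members at or above 1 TPM (SD, n = 12) and a kidney library 21.7 ± 2.89 (SD, n = 3). The ranges, 7 to 13 and 20 to 25, did not overlap. The 13 came from m3 replicate 3, and the other tubules had at most 10. The same count over all genes is not given here, and 2289 genes of the table reached a mean of 1 TPM only in kidney. The separation is therefore not shown to be particular to potassium channel genes.

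The summed level of all members was 698 ± 87.6 TPM in tubules and 906 ± 78.7 TPM in kidney (SD, n = 12 and 3). Kcnj15, Kcnj16, Kcnk5 and Kcnk1 made up 96.6% ± 0.972 of that sum in tubules and 90.9% ± 1.33 in kidney. By family, the Kir genes summed to 534 ± 84.2 TPM in tubules and 655 ± 28.6 TPM in kidney, and the K2P genes to 148 ± 23.9 and 187 ± 57.5 TPM. The Kv alpha genes summed to 8.63 ± 4.49 TPM in tubules and 26.3 ± 2.18 TPM in kidney, and the KCNE genes to 1.34 ± 0.963 and 22.9 ± 3.67 TPM. Tubule and kidney libraries overlapped in the Kir and K2P sums and did not overlap in the Kv alpha and KCNE sums. Kcnq1, at a kidney mean of 16.2 TPM, and Kcne1, at 18.1 TPM, made up most of the kidney Kv alpha and KCNE sums. The separation is therefore not shown for the rest of either family.

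**Figure D1:**
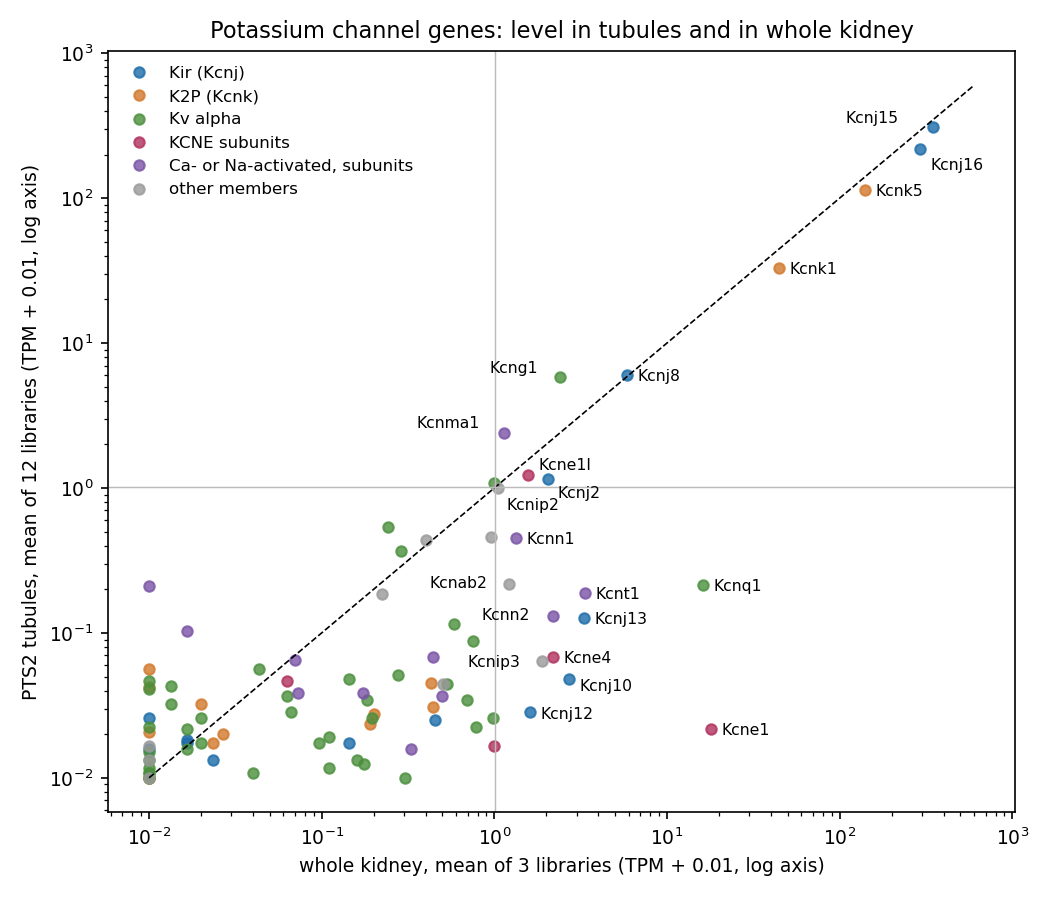
Mean TPM of each potassium channel gene in the 3 whole-kidney libraries (horizontal) and the 12 PTS2 libraries (vertical), both as TPM + 0.01 on log axes, coloured by channel family; the dashed line marks equal levels and the grey lines 1 TPM. Kcnj15, Kcnj16, Kcnk5 and Kcnk1 stand at the top right near the dashed line, and Kcne1 and Kcnq1 stand far below it, on the kidney side.

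The highest member was Kcnj15, which encodes the inward rectifier Kir4.2 (chromosome 16, 95257558 to 95300260, plus strand). Its level was 216 TPM in the lowest tubule, 295 TPM at the median and 452 TPM in the highest, and 334, 358 and 345 TPM in the 3 kidney libraries. The highest tubule was m3 replicate 4, and the kidney values lay within the tubule range. By its mean, Kcnj15 ranked 533 among all genes in the tubules. Kcnj16 (chromosome 11, 110968033 to 111027968, plus strand) encodes Kir5.1, a subunit that carries current in assembly with another Kir subunit such as Kir4.2 or Kir4.1. Its level ran from 156 TPM over a median of 223 TPM to 256 TPM in tubules and was 274, 284 and 319 TPM in kidney. Every tubule was below every kidney library for this gene.

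The ratio of Kcnj15 to Kcnj16, the pair of Kir subunits, had a median of 1.35 in the tubules, from 1.28 to 1.85, with the highest value again in m3 replicate 4, and a mean of 1.19 ± 0.0951 in kidney (SD, n = 3), from 1.08 to 1.26. The lowest tubule lay above the highest kidney library. This ratio does not depend on the scaling between libraries, and it was chosen after its values were seen, so no test is given.

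Kcnj10, which encodes Kir4.1, the partner of Kir5.1 known from the distal nephron, was close to 0 in the tubules. Its median was 0.005 TPM and its highest value 0.28 TPM, in m3 replicate 3, with no other tubule over 0.08 TPM. In kidney it was at 2.77, 2.58 and 2.79 TPM. The level of Kcnj10 was therefore below that of Kcnj15 in all 15 libraries.

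The K2P genes were led by Kcnk5 (chromosome 14, 20140057 to 20181809, minus strand), which encodes TASK-2, a leak channel opened by alkaline pH and known for its part in proximal bicarbonate transport. Its level was 82.9 TPM in the lowest tubule, 112 TPM at the median and 148 TPM in the highest, and 98.4, 125 and 200 TPM in kidney. Tubule and kidney values overlapped, and the kidney libraries differed among themselves by more than the tubules of any one set. Kcnk1 (chromosome 8, 125995170 to 126030685, plus strand) encodes TWIK-1, a weakly conducting K2P channel. It ranged from 11.5 TPM over a median of 37.9 TPM to 46.0 TPM in tubules and was 44.1, 38.4 and 50.7 TPM in kidney. The 3 lowest tubules for Kcnk1 were the replicates numbered 4 of m1, m3 and m2.

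**Figure D2:**
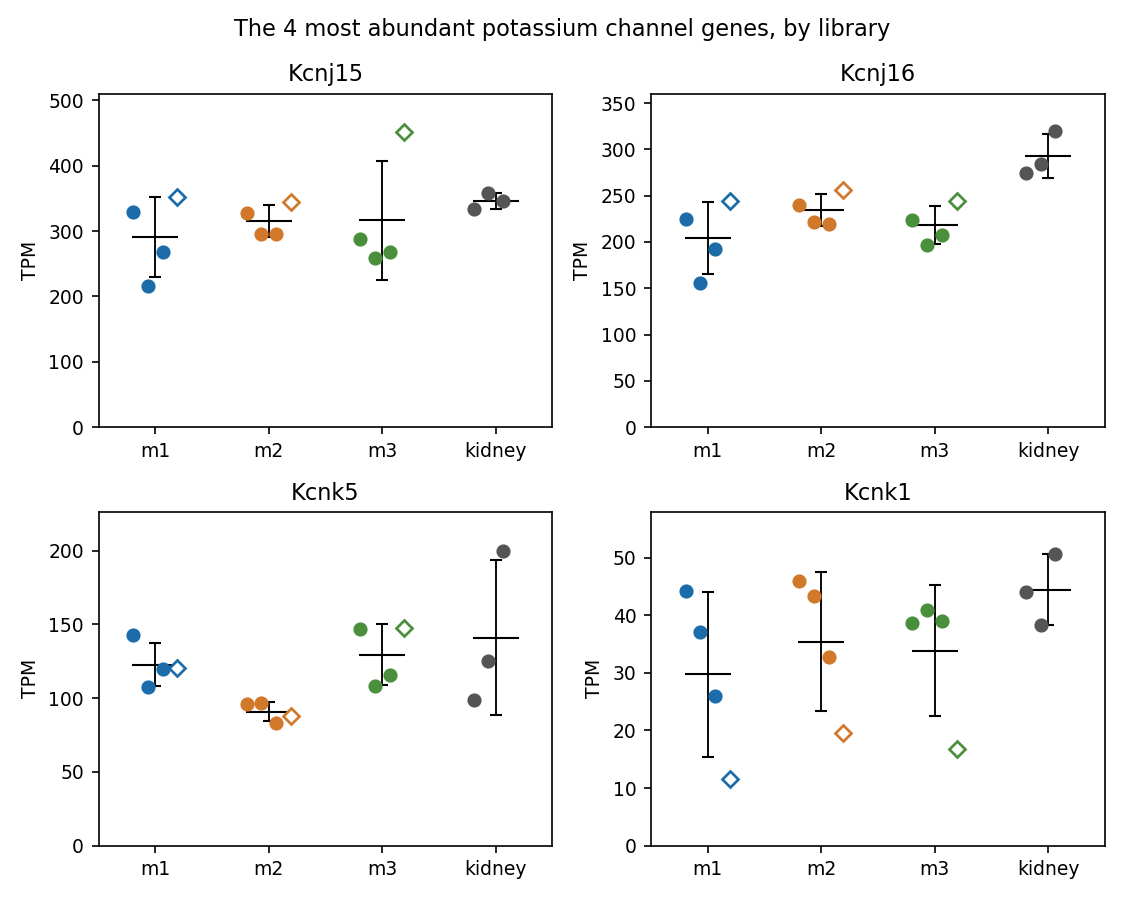
TPM of Kcnj15, Kcnj16, Kcnk5 and Kcnk1 in each library of m1, m2, m3 and whole kidney, where filled points are replicates 1 to 3, open diamonds are replicate 4 of a tubule set, and the dash with bars is the mean ± SD. Kcnj16 is lower in every tubule than in every kidney library, Kcnj15 and Kcnj16 peak at replicate 4 within each set, and Kcnk1 is lowest there.

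A second tier lay between 1 and 10 TPM. Kcnj8 encodes Kir6.1, the pore of an ATP-sensitive channel that joins the sulfonylurea receptor SUR2, encoded by Abcc9. It ran from 3.21 TPM over a median of 5.58 TPM to 9.06 TPM in tubules and was 4.64, 5.93 and 6.92 TPM in kidney, within the tubule range. Abcc9, not a member, was at 3.99 ± 1.92 TPM in tubules (SD, n = 12) and 1.88 ± 0.266 TPM in kidney (SD, n = 3). Both genes are also known from vascular smooth muscle and pericytes. The 4 markers of those cells (Acta2, Myh11, Tagln, Pdgfrb) summed to between 0.04 and 3.16 TPM in the tubules, against 79.5 ± 8.21 TPM in kidney, and all 4 were lower in every tubule than in every kidney library. None of the 4 was at 0 in all tubules. Markers of endothelium (5 genes) had a tubule median of 38.4 TPM in sum, from 20.2 to 81.9 TPM, against 258 ± 5.12 TPM in kidney, and their part in the Kcnj8 level was not tested.

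Kcng1 encodes Kv6.1, a subunit that conducts only when assembled with Kv2 subunits. It was at 0.98 TPM in the lowest tubule, 5.64 TPM at the median and 14.4 TPM in the highest, and at 2.07, 3.59 and 1.55 TPM in kidney. The groups overlapped, with the 3 kidney values in the lower part of the tubule range. The Kv2 gene Kcnb2 stood lower, at 0.0183 ± 0.0229 TPM in tubules (SD, n = 12) and 0.0567 ± 0.0551 TPM in kidney (SD, n = 3). Kcnma1 encodes the pore of the large-conductance calcium-activated channel. It ran from 0.70 TPM over a median of 1.99 TPM to 4.38 TPM in tubules and was 1.36, 1.29 and 0.75 TPM in kidney, so the groups overlapped here too.

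Kcnj2 encodes Kir2.1, a strong inward rectifier. Its tubule values ran from 0.47 TPM over a median of 0.935 TPM to 2.13 TPM, beside 1.27, 1.72 and 3.08 TPM in kidney. Kcne1l, also called Kcne5, encodes an accessory KCNE subunit and ran from 0.28 TPM over a median of 0.965 TPM to 4.06 TPM in tubules, beside 2.60, 0.81 and 1.29 TPM in kidney. For both genes tubule and kidney libraries overlapped. Kcnip2, which encodes a calcium-binding partner of Kv4 channels, was at 0.997 ± 0.606 TPM in tubules (SD, n = 12) and 1.04 ± 0.323 TPM in kidney (SD, n = 3). By set it was at 0.73, 0.01, 1.08 and 1.01 TPM in m1, at 1.63, 1.82, 1.64 and 1.77 TPM in m2, and at 0.57, 0.82, 0.27 and 0.61 TPM in m3. Every m2 tubule lay above every other tubule, and the gene was not tested among the sets because its mean was just under 1 TPM.

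**Figure D3:**
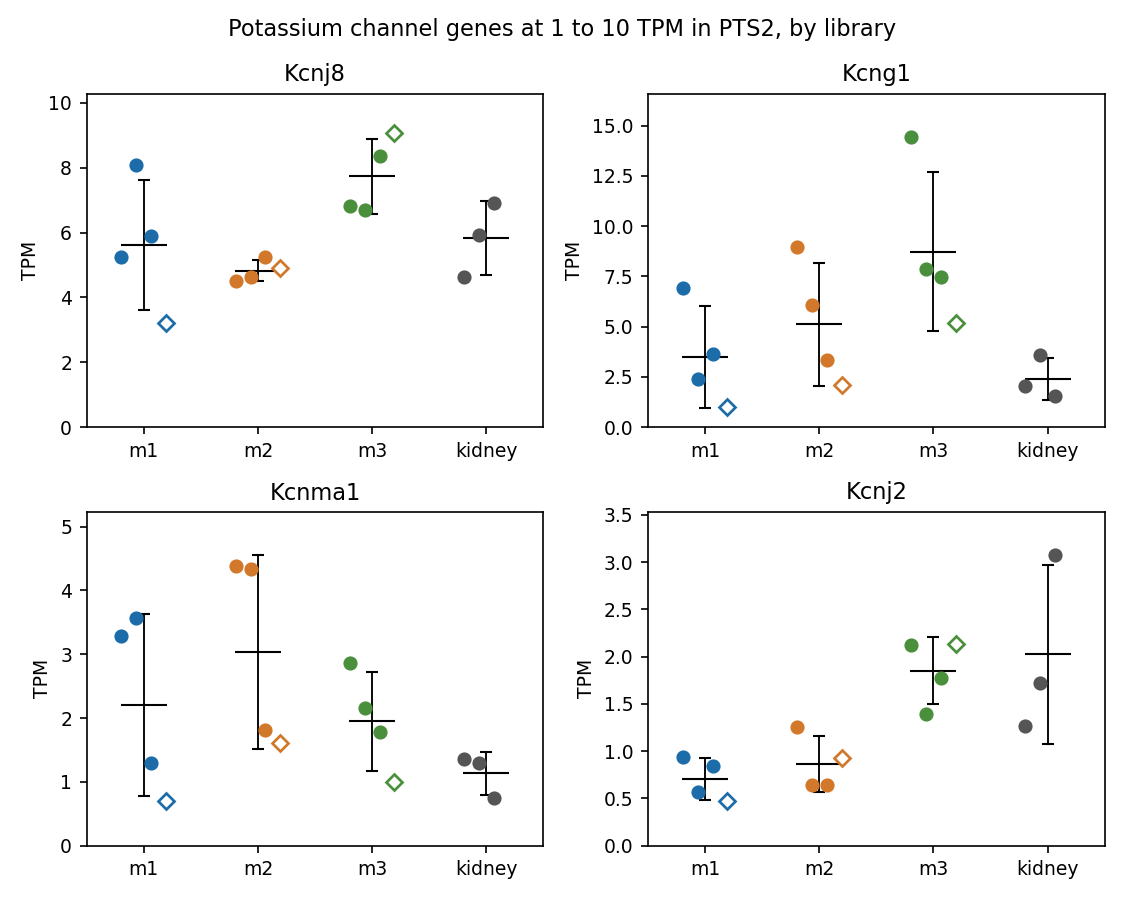
TPM of Kcnj8, Kcng1, Kcnma1 and Kcnj2 in each library, with symbols as in the plot of the highest genes. Kcng1 and Kcnma1 are lowest in replicate 4 of each tubule set, and the m3 values of Kcnj2 all lie above those of m1 and m2.

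Another 12 members reached a mean of 1 TPM only in whole kidney, and for 11 of them, all but Kcnip2, no tubule value reached the lowest kidney value. Of all 2289 genes chosen in the same way, 80.3% showed this separation, which the choice favours, so nothing is read from the count. Kcne1 encodes an accessory subunit that slows the KCNQ1 channel, and Kcnq1 encodes that voltage-gated channel, known from the apical membrane of proximal tubule cells. Kcne1 was at 0.005 TPM at the tubule median and at most 0.06 TPM, and at 19.0, 19.1 and 16.2 TPM in kidney. Kcnq1 was at 0.045 TPM at the tubule median and at 16.5, 16.8 and 15.4 TPM in kidney. Its highest tubule value was 1.88 TPM in m3 replicate 3, 11.6% of the kidney mean, and no other tubule was over 0.21 TPM. The tubule mean of Kcnq1 was 0.205 TPM with this library and 0.0527 TPM without it.

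Kcnt1, which encodes a sodium-activated channel, was at 0.01 TPM at the tubule median and at 3.31, 3.74 and 3.00 TPM in kidney. Kcnj13, which encodes Kir7.1, was at 0.075 TPM at the tubule median, with a highest value of 0.59 TPM in m1 replicate 3, and at 5.37, 2.21 and 2.27 TPM in kidney. Kcnn2, which encodes a small-conductance calcium-activated channel, was at 0.01 TPM at the tubule median and at 2.28, 1.72 and 2.51 TPM in kidney. All tubules were below all kidney libraries for these 3 genes. Kcnt1 and Kcnn2 were highest in m3 replicate 3, at 1.97 and 1.05 TPM, which is 58.8% and 48.4% of their kidney means, and no other tubule was over 0.06 TPM for Kcnt1 or 0.17 TPM for Kcnn2.

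Kcne4, an accessory subunit that inhibits Kv channels, had a tubule maximum of 0.14 TPM and stood at 2.90, 2.11 and 1.50 TPM in kidney. Kcnip3, a calcium-binding partner of Kv4 channels, had a tubule maximum of 0.23 TPM in m3 replicate 3, with no other tubule over 0.13 TPM, and stood at 1.60, 2.70 and 1.34 TPM in kidney. Kcnj12, which encodes Kir2.2, had a tubule maximum of 0.13 TPM and stood at 1.73, 1.10 and 1.98 TPM in kidney. These 3 genes were thus far from overlap. Kcnn1, which encodes another small-conductance channel, reached 0.78 TPM in tubules and was at 1.17, 1.36 and 1.45 TPM in kidney, and Kcnab2, a Kv beta subunit, reached 0.67 TPM beside 1.39, 0.97 and 1.24 TPM.

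Among these kidney-side genes, 6 (Kcnn1, Kcnq1, Kcnt1, Kcnn2, Kcnip3 and Kcnj10) had their highest tubule value in m3 replicate 3, the library with 1408 TPM of thick ascending limb genes. The part of those cells in the 6 values was not tested. Kcne1 was at 0.01 TPM in that library, 0.0553% of its kidney mean.

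**Figure D4:**
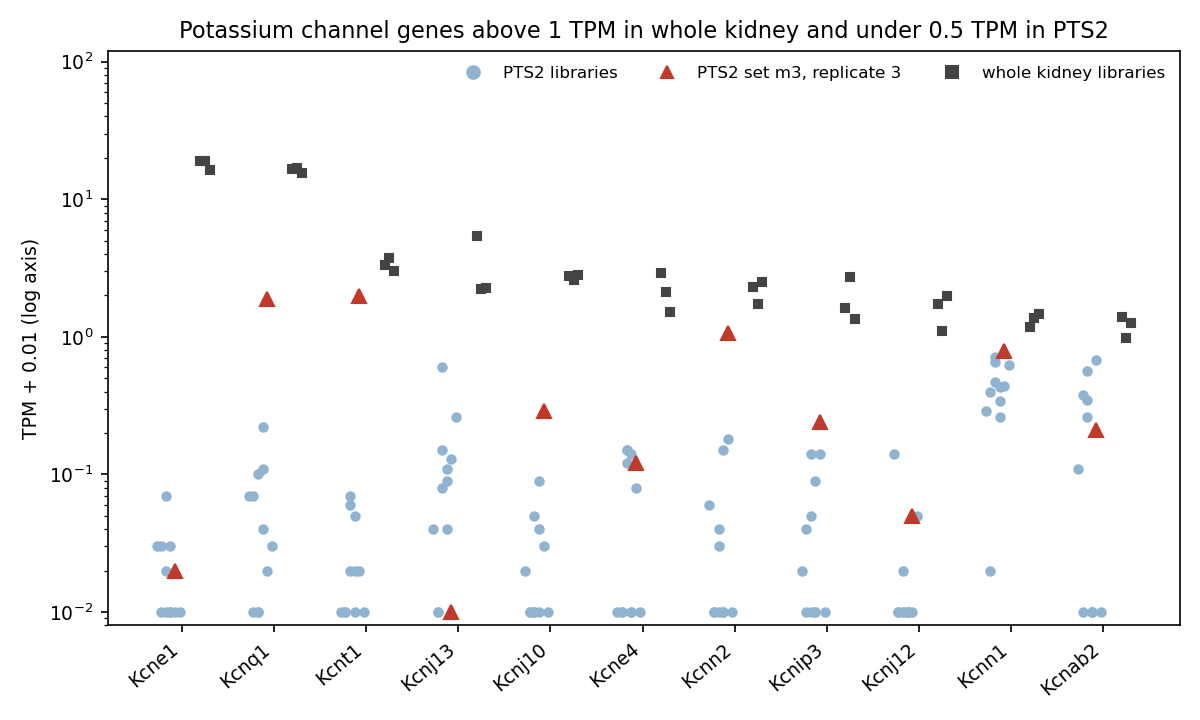
TPM + 0.01 on a log axis, by library, of 11 of the 12 members that reached a mean of 1 TPM only in whole kidney (Kcnip2 is left out), with m3 replicate 3 marked as a triangle and kidney libraries as squares. The kidney libraries lie above all tubules for each gene drawn, and m3 replicate 3 is the highest tubule for Kcnq1, Kcnt1, Kcnn2, Kcnip3, Kcnj10 and Kcnn1.

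How far the tubules and whole kidney differed was tested with limma on log2(TPM + 1), a scale that understates the change of low genes, over genes whose mean level in the 15 libraries reached 1 TPM. This filter kept 13 of the 95 members and left 82 untested. Of the 13, 3 were called at an adjusted p under 0.05, all lower in the tubules, and none was called higher. Of these 3, Kcnq1 and Kcne1 passed the filter only through the kidney libraries, which sets their direction. Among all 12039 genes tested, 46.9% were called, 38.2% lower and 8.69% higher, and the members' share, 3 of 13, was under that of all genes. The median log2 difference was -0.24 over the 13 members and -0.27 over all genes.

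Kcnj16 was lower in the tubules, by -0.42 ± 0.13 on the log2 scale (SE), with a limma adjusted p of 0.0115. Under median-of-ratios rescaling, which moves the median of all genes from -0.27 to -0.003, its difference was -0.13 and no longer called (adjusted p = 0.347), and without kidney replicate 3 it was -0.36 (adjusted p = 0.0610). Kcnq1 had a difference of -3.91 ± 0.28 (limma adjusted p = 5.01e-09) and Kcne1 one of -4.23 ± 0.11 (limma adjusted p = 1.07e-14). These last 2 passed the filter only through the kidney libraries, which sets the direction of their calls. Both were called lower under every alternative that tested them, which does not lift this limit. In bulk samples like these, fewer cells of a type and less RNA per cell cannot be told apart. Kcnq1 overlaps the opposite-strand gene Kcnq1ot1, and the cDNA kit does not keep the strand, so reads of the pair cannot be told apart. The same limit holds for other members that overlap opposite-strand genes, among them Kcnj15, Kcnk1, Kcnma1, Kcnj13, Kcnab2, Kcnmb1 and Kcnmb4.

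The other 10 tested members were not called. Kcnj15 differed by a log2 of -0.19 ± 0.17 (SE; limma adjusted p = 0.367), Kcnk5 by -0.26 ± 0.21 (0.311) and Kcnk1 by -0.51 ± 0.38 (0.282). Rescaled by median of ratios, the differences of Kcnj15 and Kcnk5 became 0.10 and 0.03, still not called. In the fit on 1 mean per set, Kcnj15 and Kcnk1 were called lower, at the unchanged differences of -0.19 and -0.51. Kcnma1 was called higher there, at 0.59. Kcng1 stood at 0.83 ± 0.50 (limma adjusted p = 0.180) and Kcnma1 at 0.59 ± 0.35 (0.172), and both were called higher after quantile normalization, at 1.61 and 1.26. Kcnj8 stood at 0.02 ± 0.23 (limma adjusted p = 0.955), and quantile normalization moved it to a called value of 0.75. That normalization moves the median of all genes to 0.15. Of all genes called, 18.5% were higher in the tubules on the deposited scale, 49.8% after median-of-ratios rescaling and 64.0% after quantile normalization.

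Every tubule library was below every kidney library for 32.0% of the genes tested, and for Kcnj16, Kcnq1 and Kcne1 among the 13 members. With no filter on low values, 41 of 91 testable members were called lower and none higher, beside 27.4% and 3.52% of the 30969 genes. The 41 include 11 of the 12 genes chosen for reaching 1 TPM only in kidney, a choice that sets their direction. Among them the log2 difference was -1.84 for Kcnj10, -1.97 for Kcnt1 and -1.87 for Kcnj13, given as a description with no test. Apart from the 11 genes and Kcnj16, every member of the 41 had a mean under 1 TPM in both groups. An example is Kcna6, at 0.0025 TPM in tubules and 0.167 TPM in kidney, so nothing is read from the count.

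Among the 3 sets of tubules, a limma F test over 11300 genes called none of the 10 members tested, and 4 (Kcnk5, Kcnj8, Kcng1 and Kcnj2) had an unadjusted p under 0.05. Over all genes 3.02% were called. Between pairs of sets, 0 members differed between m2 and m1 (0.540% of all genes), 1 between m3 and m1 (3.17%) and 1 between m3 and m2 (1.97%).

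The member that differed between m3 and m2 was Kcnk5. Its values were 143, 107, 120 and 121 TPM in m1, 96.1, 96.4, 82.9 and 87.9 TPM in m2, and 147, 108, 116 and 148 TPM in m3. Every m2 tubule was below every m1 and m3 tubule. The log2 difference of m3 from m2 was 0.50 ± 0.12 (SE; limma adjusted p = 0.0479), and the F test gave an adjusted p of 0.0575. The pairwise call was lost without any one of 9 of the 12 libraries, with adjusted p up to 0.153. The F test passed the threshold under median-of-ratios rescaling (adjusted p = 0.00932) and quantile normalization (0.0266).

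The member that differed between m3 and m1 was Kcnj2. Its values were 0.94, 0.57, 0.84 and 0.47 TPM in m1, 1.26, 0.64, 0.64 and 0.93 TPM in m2, and 2.12, 1.39, 1.77 and 2.13 TPM in m3. All m3 tubules were above all others. The log2 difference of m3 from m1 was 0.74 ± 0.18 (SE; limma adjusted p = 0.0426), and it was lost without any one of 10 libraries, with adjusted p up to 0.141. The F test over the sets gave an adjusted p of 0.0689.

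Kcng1 had values of 6.91, 2.39, 3.66 and 0.98 TPM in m1, 8.98, 6.10, 3.33 and 2.09 TPM in m2, and 14.4, 7.88, 7.49 and 5.17 TPM in m3, and the sets overlapped. The summed macrophage genes were at 47.6, 35.9, 33.7 and 23.1 TPM in m1, 60.6, 51.0, 39.3 and 35.0 TPM in m2, and 77.1, 54.0, 47.4 and 41.7 TPM in m3. Within m2 and within m3 the tubules had the same order in Kcng1 and in these genes, and in m1 replicates 2 and 3 changed places. The part of those cells in the Kcng1 level was not tested. Kcnj8 had values of 5.25, 8.08, 5.90 and 3.21 TPM in m1, 4.51, 4.63, 5.25 and 4.92 TPM in m2, and 6.81, 6.71, 8.35 and 9.06 TPM in m3. Here every m3 tubule was above every m2 tubule, and m1 overlapped both.

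Within the sets, the tubules numbered 4 stood at one end for 5 of the 10 members, a pattern chosen after its values were seen and given with no test. Kcnk1, Kcng1 and Kcnma1 were lowest in replicate 4 of each set, as were 4.49% of all 11300 genes. Kcnj15 and Kcnj16 were highest there, as were 4.79% of all genes. Kcnk1 was at 11.5, 19.6 and 16.8 TPM in the tubules numbered 4 of m1, m2 and m3, beside 26.0 to 46.0 TPM in the other 9. The ratio of Kcnk5 to Kcnk1 ran from 2.09 to 10.5 over the tubules and from 2.23 to 3.94 in kidney. The summed level of the S2 genes Slc22a6 and Slc22a8 was likewise highest in the tubules numbered 4, at 1149, 892 and 1024 TPM, beside 368 to 762 TPM in the others. The S3 gene Slc7a13 was at 1367, 1737 and 1837 TPM in the tubules numbered 4 and at 1556 to 2141 TPM in the others. The summed macrophage genes were lowest in the tubules numbered 4 of each set, at 23.1, 35.0 and 41.7 TPM, as Kcnk1, Kcng1 and Kcnma1 were. The part of any of these marker genes' cells in the pattern was not tested.

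Other genes of potassium handling give the setting. Of 21 listed genes for pumps, cotransporters and channel partners, 13 were tested between tubules and kidney, 1 was called higher, 8 were called lower and 4 were not called. Over all genes tested, 38.2% were called lower and 8.69% higher. The filter sets the direction for some of the 8, as given below, so nothing is read from these counts. Atp1b1, the beta subunit of the sodium pump, which moves potassium into the cell, was lower in tubules, at 540 ± 51.7 TPM beside 782 ± 69.3 TPM in kidney (SD, n = 12 and 3), a log2 difference of -0.54 with a limma adjusted p of 0.000190. Fxyd2, the gamma subunit of that pump, differed by -0.40 (limma adjusted p = 0.00647), a call lost after median-of-ratios rescaling (-0.10, adjusted p = 0.624). Tmem38b, which encodes an intracellular cation channel of the endoplasmic reticulum, was higher by 0.36 (limma adjusted p = 0.0117).

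Slc12a2, a sodium-potassium-chloride cotransporter, was called lower, at -0.76 (limma adjusted p = 0.00454), a call lost after quantile normalization (-0.25, adjusted p = 0.264). Slc12a4, a potassium-chloride cotransporter, and Tmem38a, another intracellular cation channel, were called lower at -2.34 and -1.66. Atp4a, the catalytic subunit of a proton-potassium pump, was at 0.0917 TPM in tubules, or 0.0427 TPM without m3 replicate 3, and at 20.3 TPM in kidney. Lrrc52, an auxiliary subunit of potassium channels, was at 0.00667 TPM beside 5.59 TPM. Both were called lower, but Atp4a, Lrrc52 and Slc12a4 passed the filter on low values only through the kidney libraries, which sets the direction of their calls. Abcc9 stood at 0.71 and was not called (limma adjusted p = 0.0626), but was called higher after median-of-ratios rescaling (0.89, adjusted p = 0.0166) and quantile normalization (1.49, adjusted p = 0.000214). The potassium-chloride cotransporter gene Slc12a7 and the lysosomal channel gene Tmem175 were not called. None of the 10 listed genes tested among the 3 tubule sets was called.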

How the data were processed

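The deposited table gives, per gene and library, TPM values that the authors computed. STAR 2.5.1b, RSEM 1.2.31 and the build GRCm38.p5 are named, with no order or role, per the submitters' processing notes; the annotation release is not given in the sources used here. Read totals are lost in this unit: sequencing depth is not known, and counting intervals cannot be given. The 4 columns of the authors' means and errors were not used. Library names in the table headings matched the labels.

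Values were taken as log2(TPM + 1). Genes that averaged 1 TPM or more in the libraries compared were fitted with limma 3.58.1 (lmFit and eBayes with trend, R 4.3.3) and adjusted by Benjamini-Hochberg over all genes tested, with a threshold of 0.05. For tubules against kidney, the set (m1, m2, m3 or kidney) entered as a correlated block (estimated correlation 0.0957). The 3 tubule sets were compared in a separate fit by an F test and pairwise contrasts. Alternatives were a pseudocount of 0.1 TPM, other filters, median-of-ratios and quantile scaling, the replicate number as a block, no correlation within sets, set means, and leaving out each library. The procedure was tested on simulated data, with 200 genes changed by a log2 of 1 or 2. Between tubules and kidney it recovered 182 and 193 of them, with 23 and 15 false calls. Among the sets it recovered 175 and 197, with 5 and 17 false calls. The simulated libraries were drawn independently, so the correlated block was not tried out.

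Members with a mean of at least 1 TPM in tubules or kidney are named, with kidney values per library for most of them. Tubule values are given per library for some, and otherwise as a range, median, maximum or mean. The members, gene lists and marker lists were chosen with earlier results of these data known. Coordinates and reading frames are from GENCODE M21 (GRCm38), in which all 95 members were found. Values of some genes and some sequences are not reported here.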

Additional observations from a re-analysis of the deposited data

Results flagged for a closer look

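In 5 of 30 groups of 4 tubules with at least 1 library at 0.5 TPM, one library lay far from the nearest of the others relative to the range of the group. Chance alone would give this in about 1 in 20 groups chosen without regard to their values, or 1.5 of 30. The groups of Kcnq1 and Kcnt1 in m3 and of Kcnj13 in m1 reached 0.5 TPM only through the flagged library. That rate does not hold for them, so the 5 cannot be compared with 1.5. In m3, replicate 4 had 452.28 TPM of Kcnj15 (the next highest was 287.28 TPM) and 16.84 TPM of Kcnk1 (the next lowest was 38.6 TPM). Also in m3, replicate 3 had 1.88 TPM of Kcnq1 (next 0.03 TPM) and 1.97 TPM of Kcnt1 (next 0.04 TPM). In m1, replicate 3 had 0.59 TPM of Kcnj13 (next 0.1 TPM).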

How the results depend on the processing

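Low values carry a counting error that cannot be computed from TPM. None of the named differences reversed while called: of the single-gene alternatives, 1216 kept their side of the threshold, 34 came to pass it and 27 no longer did. Between tubules and kidney, 5645 genes were called, and 9581 with no filter. With a mean of at least 1 TPM required in both groups 4773 genes were called. After quantile normalization there were 5940, and with 1 mean per set 6677. Potassium channel genes called numbered 3, and 41 with no filter, 1 with a mean of at least 1 TPM required in both groups, 7 after quantile normalization and 6 with 1 mean per set. Among the 3 tubule sets, 341 genes were called, 196 with no filter and 197 to 563 without each library in turn. The count moved by over 1.5 times without m1 replicate 1 (563), m2 replicate 2 (220), m3 replicate 1 (197), m3 replicate 2 (226) or m3 replicate 3 (209). Potassium channel genes called among sets numbered 0, and 1 each at a mean of at least 5 TPM, after median-of-ratios rescaling and after quantile normalization (Kcnk5 each time), and 0 to 2 without each library. Between m3 and m1, 358 genes were called, 178 with no filter and 160 to 771 without each library. Members per library averaged 13.2 at 0.5 TPM and 5.25 at 5 TPM in tubules, and 31 and 7 in kidney. The cause of these changes was not tested.

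Same-numbered tubules were not fitted as pairs in the main tests, and their deviations from the set means correlated over 0.1 in 7 of 12 pairs. All 12 correlations were positive, from 0.0254 to 0.273 (mean 0.143), and 9 of 12 libraries correlated best with their own number. The mean of the other 36 pairs, -0.0481, is no separate comparison, because deviations from a set mean cancel within the set. A likeness between same-numbered tubules is therefore not excluded, and the main set tests do not allow for it. With the replicate number as a block, 5 potassium channel genes were called between tubules and kidney, with Kcng1 (1.10, limma adjusted p = 0.0357) and Kcnma1 (0.80, limma adjusted p = 0.00566) added as higher. Over all genes, 5646 were called with that block. No kidney library is numbered 4, so this block largely takes the tubules numbered 4 out of the difference. Those tubules were the lowest of each set for both genes, and the labels do not match kidney numbers to tubule numbers. The added calls therefore do not rest on all tubules alike. The block gave 888 genes and 3 potassium channel genes among sets (Kcnk5, Kcng1 and Kcnj2, limma adjusted p = 0.0135, 0.00758 and 0.0477) and 838 genes between m3 and m1.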

Other observations

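Kcnmb4, which encodes an accessory beta subunit of the large-conductance calcium-activated channel, was listed at 0 in all 3 kidney libraries and above 0 in 10 of 12 tubules, at a median of 0.11 TPM and at most 0.71 TPM. It was named after its values were seen, and the level is too low for a comparison. Kcnmb4 also overlaps Kcnmb4os1 and Kcnmb4os2 on the opposite strand, whose reads cannot be told from its own. Kcnmb1, the beta subunit known from smooth muscle, was at 0.0267 ± 0.0342 TPM in tubules (SD, n = 12) and 0.490 ± 0.165 TPM in kidney (SD, n = 3).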
